A study of Mus musculus with 6 samples.

Results

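Aminoacyl-tRNA synthetases are the enzymes that join each amino acid to its transfer RNA, the step that supplies ribosomes with charged tRNA. The members described here are the 36 genes of a list of synthetase symbols, 20 for enzymes of the cytosol and 16, with names ending in 2, for enzymes of the mitochondrion. The list was matched by symbol and not by any measured value, but it was chosen with earlier results of these data known. All 36 were found among 56923 gene identifiers in the tables, and all 36 passed the filter on low counts that left 18273 genes for testing.

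RNA sequencing measured poly-A RNA of 6 whole, snap-frozen kidneys of male mice. The 3 Pkd1 KO kidneys came from Pkd1flox/flox.Pax8rtTA.Tet-O-Cre mice, in which a doxycycline-dependent activator driven by Pax8, a gene of kidney tubule cells, switches on Cre. The 3 control kidneys came from Pkd1flox/flox.Tet-O-Cre mice, which carry the same floxed alleles and Cre transgene and lack the activator. All received doxycycline at 2 mg/ml with 5% sucrose in drinking water over 14 days, from day 28 to day 42 after birth, and were studied at 10 weeks of age. Pkd1 encodes polycystin-1, a membrane protein whose loss underlies most dominant polycystic kidney disease, and deletion reaches only cells with Pax8, not the whole organ. The labels do not say whether the kidneys of a group came from separate litters, so p-values measure the spread between these samples.

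The cytosol and the mitochondrion translate separately, and most amino acids have a synthetase gene for each place, although all of these genes lie in the nucleus. Gars and Kars each serve both compartments from 1 gene. Several cytosolic enzymes are held together in the multisynthetase complex. When uncharged tRNA accumulates, the kinase GCN2 phosphorylates the initiation factor eIF2α, which favours translation of the transcription factor ATF4, and genes of many cytosolic synthetases are known targets of ATF4.

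The libraries held 51966474 to 62983791 gene counts in Pkd1 KO kidneys and 45020173 to 55548316 in controls, and a synthetase gene had 296 to 17814 reads in a library. Pkd1 itself (ENSMUSG00000032855) had 8.77, 9.003 and 10.01 CPM (counts scaled to library size) in Pkd1 KO kidneys, against 30.01, 46.4 and 23.6 CPM in controls (log2 fold change −1.85 ± 0.24, SE, edgeR adjusted p = 0.00234). In a second edgeR fit with offsets for the GC content and length of genes the Pkd1 value was −0.34 (adjusted p = 0.0643). By the names of the deposited tables, the Pkd1 KO libraries belong to one sequencing project and the controls to another, and the effect of project on the values cannot be told apart from that of genotype. Markers of proximal tubule summed to 4142 to 4843 CPM in Pkd1 KO kidneys and 6560 to 12756 CPM in controls, with 6 of 8 called lower, 1 higher and none at 0. Summed macrophage markers ran from 218 to 352 CPM and from 121 to 162 CPM in the same order of groups, with 5 of 8 called higher and 1 lower. Much of that gap came from Lyz2, with 97.5, 189 and 165 CPM in Pkd1 KO kidneys, against 26.4, 12.7 and 30.2 CPM in controls. The marker called lower, Csf1r, was lower in both fits. All 5 markers of proliferating cells and all 4 of tubular injury were called higher. Of all tested genes 24.2% were called lower and 22.7% higher. With the offsets 5 proximal tubule markers were lower and 0 higher, and 5 macrophage markers were higher and 1 lower. All 5 proliferation markers and 3 of the 4 injury markers were higher in that fit. It called 17.4% of all genes lower and 17.1% higher. In whole kidneys, fewer cells of a type and less RNA per cell cannot be told apart, and the part of these shifts in the values below was not tested.

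Compared per kilobase of exon (RPKM), synthetase genes spanned a wide range, as the plot of levels shows. In Pkd1 KO kidneys the order was headed by cytosolic Dars, the aspartate enzyme, at 38.4 ± 1.06 RPKM (SD, n = 3), which stood apart from Lars2, the mitochondrial leucine enzyme, at 25.2 ± 4.29. Sars at 23.1 ± 1.97 and Rars2 at 22.3 ± 1.93 RPKM did not differ from Lars2 beyond their spread. In controls Lars2 at 26.1 ± 1.55, Dars at 25.6 ± 4.09, Gars at 25.2 ± 1.38, Sars at 23.8 ± 1.49 and Nars at 23.3 ± 2.83 RPKM led, and these 5 did not differ beyond their spread. The lowest levels in Pkd1 KO kidneys were those of Aars2 (1.44 ± 0.143), Vars2 (1.68 ± 0.0565) and Ears2 (1.69 ± 0.30), and in controls those of Mars2 (1.76 ± 0.0795), Pars2 (2.18 ± 0.284) and Wars2 (2.35 ± 0.143). The median cytosolic synthetase stood at 7.33 RPKM in Pkd1 KO kidneys and 13.2 RPKM in controls, and the median mitochondrial one at 3.72 and 4.80 RPKM in the same order.

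**Figure D1:**
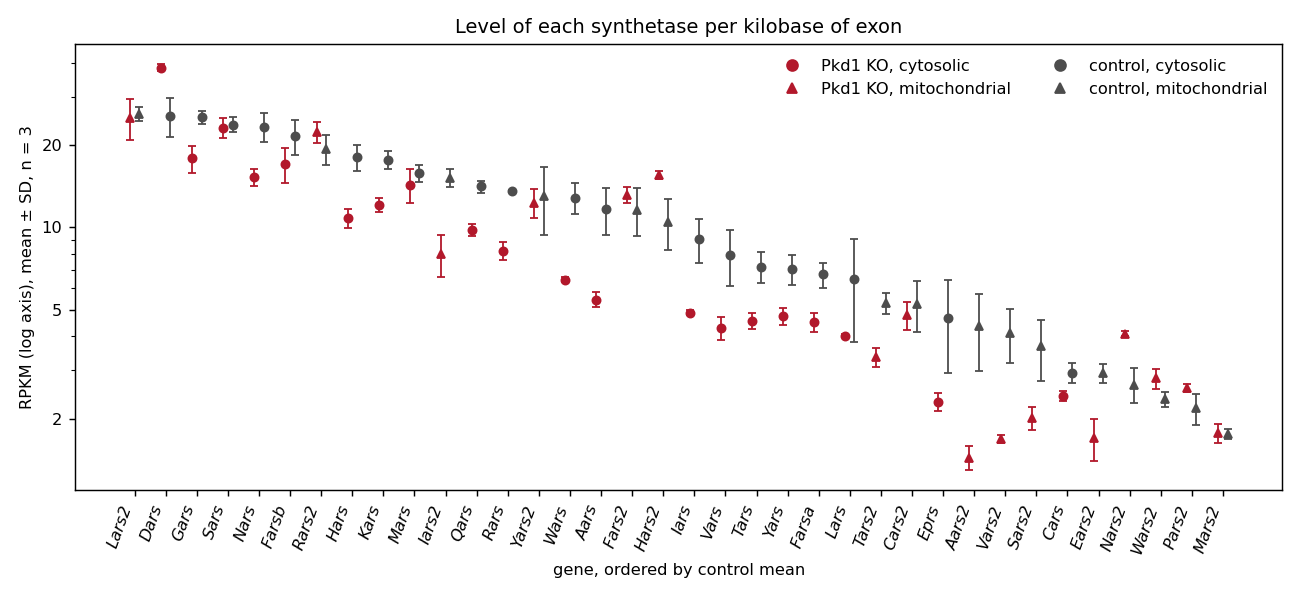
Mean level of each of the 36 synthetase genes in RPKM on a log axis, with SD over 3 kidneys, Pkd1 KO in red left of control in grey, circles for cytosolic and triangles for mitochondrial enzymes. Dars is the highest point in Pkd1 KO kidneys, at 38.4 RPKM, and Aars2 the lowest, at 1.44 RPKM.

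Most cytosolic synthetase genes were lower in Pkd1 KO kidneys. Of 20, 14 fell, 1 rose (Dars) and 5 were not called, with a median log2 fold change (Pkd1 KO over control) of −0.59 and a range of −1.10 to 0.59. Among all 18273 tested genes the median was 0.03, 24.2% were called lower and 22.7% higher, 46.9% in all. The values of the Pkd1 KO kidneys lay below all controls for 16 of the 20 and above all for 1, against 30.0% and 31.2% of all tested genes. Summed over the 20 genes, the counts came to 1003, 918 and 932 CPM in Pkd1 KO kidneys, against 1310, 1341 and 1195 CPM in controls, with no overlap.

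Fold changes followed gene structure in these libraries. Over the 17785 tested genes with known GC content and length, the log2 fold change had a Spearman correlation of −0.39 with GC content and −0.39 with log2 exon length, and over the 36 synthetases −0.39 and −0.09. These are descriptions across genes of the same 6 libraries. The fit with offsets for both properties called 17.4% of genes lower and 17.1% higher, 34.5% in all. In it 11 cytosolic genes fell and 1 rose (Sars), with a median of −0.53, and 10 fell in both fits. Below, an offset value is given wherever it ended or turned a call or moved it by more than 1.5 times.

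**Figure D2:**
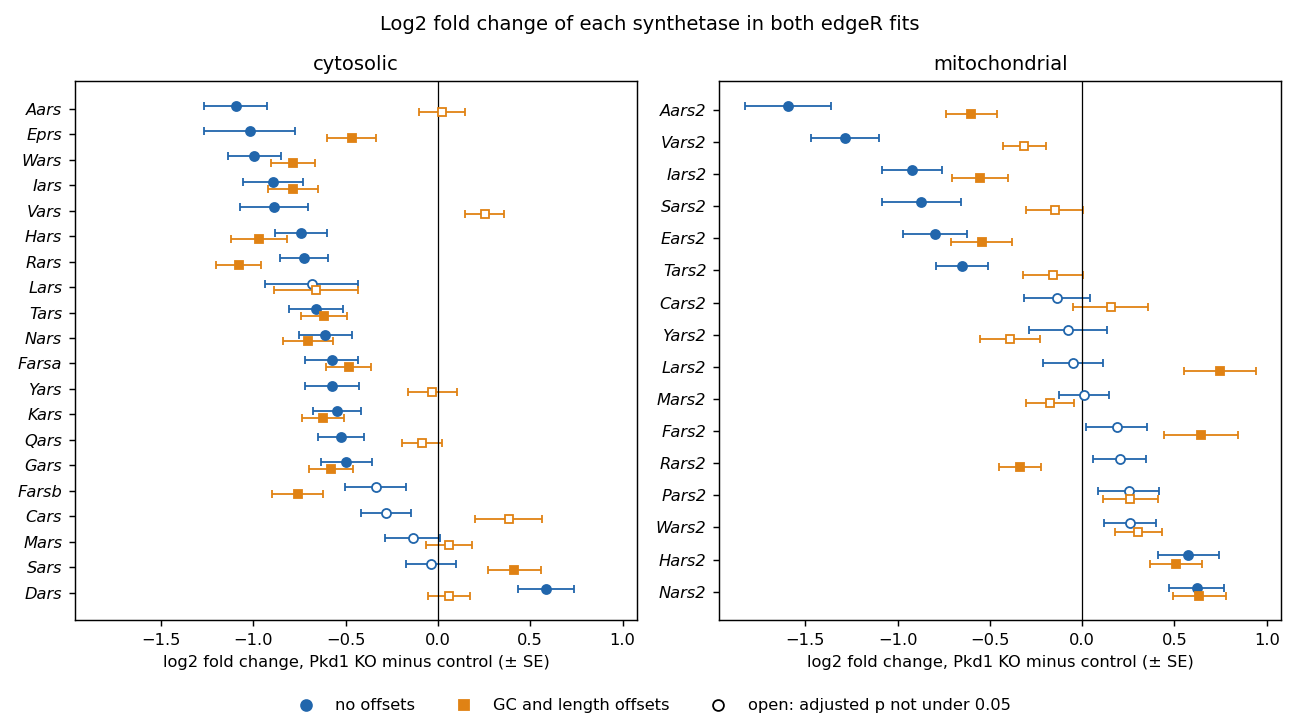
Change of each synthetase on the log2 scale (Pkd1 KO minus control), with SE, in the edgeR fit without offsets (blue circles) and with GC and length offsets (orange squares), with filled symbols for an adjusted p under 0.05. Without offsets 14 cytosolic and 6 mitochondrial genes are filled on the negative side, and Aars, Vars, Qars and Yars are among those whose offset value is open and near or above 0.

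The largest decrease that held in both fits among cytosolic genes, by the value without offsets, was that of Eprs, the bifunctional enzyme for glutamate and proline. Eprs (ENSMUSG00000026615) had 40.2, 45.6 and 39.6 CPM in Pkd1 KO kidneys, against 80.2, 119 and 55.5 CPM in controls. All 3 controls were higher, and control 2 was the highest of them. The log2 fold change was −1.02 ± 0.25 (SE, edgeR adjusted p = 0.0104) and −0.47 with the offsets (adjusted p = 0.0224). Wars, the tryptophan enzyme and in human cells a gene induced by interferon gamma, had 21.9, 21.9 and 22.8 CPM in Pkd1 KO kidneys, against 50.2, 43.7 and 38.8 CPM in controls (−0.99 ± 0.14, edgeR adjusted p = 0.00259). The Pkd1 KO kidneys stood within 1 CPM of each other, well below every control.

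Within the multisynthetase complex, 5 of 8 enzyme genes fell, 1 rose and 2 were not called, with a median of −0.61. The 62.5% that fell and 12.5% that rose compare with 24.2% and 22.7% of all tested genes. The isoleucine enzyme gene Iars (ENSMUSG00000037851) had 26.5, 25.4 and 25.3 CPM in Pkd1 KO kidneys, against 48.9, 56.2 and 38.4 CPM in controls (−0.89 ± 0.16, edgeR adjusted p = 0.00372). Rars, for arginine, had 28.3, 24.4 and 26.8 CPM in Pkd1 KO kidneys, against 44.3, 43.5 and 43.8 CPM in controls (−0.73 ± 0.13, edgeR adjusted p = 0.00349), and the controls agreed to within 1 CPM. Kars, for lysine, had 57.5, 51.9 and 52.4 CPM in Pkd1 KO kidneys and 85.5, 74.2 and 76.5 CPM in controls (−0.55 ± 0.13, edgeR adjusted p = 0.0095). The groups of these 3 genes were apart, and their decreases held with the offsets. Qars, for glutamine, was lower at −0.53 ± 0.13 (edgeR adjusted p = 0.00981), with 60.5 to 66.9 CPM in Pkd1 KO kidneys against 87.6 to 96.5 in controls, and its value was −0.09 with the offsets (adjusted p = 0.569).

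Leucine and methionine enzymes of the complex were not called. Lars, which in human cells also serves as a leucine sensor for the kinase mTORC1, had 21.8, 21.2 and 21.7 CPM in Pkd1 KO kidneys, against 28.9, 50.8 and 24.3 CPM in controls (−0.68 ± 0.25, edgeR adjusted p = 0.0512). Control 2 stood far above the other controls, and without it the value was −0.34 (edgeR adjusted p = 0.0688), whereas without control 3 it was −0.93 (edgeR adjusted p = 0.00431). Mars, listed as Mars1 by its newer name, had 55.5, 41.7 and 49.97 CPM in Pkd1 KO kidneys, against 53.4, 50.4 and 57.98 CPM in controls (−0.14 ± 0.15, edgeR adjusted p = 0.466), and its groups overlapped.

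Dars was the only cytosolic gene called higher in the fit without offsets. Dars (ENSMUSG00000026356) had 173, 166 and 164 CPM in Pkd1 KO kidneys, against 107, 96.05 and 131 CPM in controls. Every Pkd1 KO kidney exceeded every control, by 0.59 ± 0.15 on the log2 scale (SE, edgeR adjusted p = 0.0133). With the offsets the value was 0.06 (adjusted p = 0.705), and the call was also lost without KO 1, KO 2 or control 1 (edgeR adjusted p 0.0525, 0.0541 and 0.0634). Dars has the lowest GC content of the cytosolic members, 41.2%.

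Of the 12 cytosolic genes outside the complex, 9 fell and 3 were not called, with a median of −0.59. The 75% that fell compare with 24.2% of all tested genes. Aars, the alanine enzyme, had 54.01, 47.7 and 49.9 CPM in Pkd1 KO kidneys, against 109.5, 128 and 86.1 CPM in controls, the largest cytosolic difference without offsets (−1.10 ± 0.17, edgeR adjusted p = 0.00274). With the offsets it stood at 0.02 (adjusted p = 0.902). Vars, the valine enzyme, had 23.9, 21.9 and 26.3 CPM in Pkd1 KO kidneys, against 42.8, 55.6 and 35.1 CPM in controls (−0.89 ± 0.19, edgeR adjusted p = 0.00577), and 0.25 with the offsets (adjusted p = 0.0884). Both genes are GC-rich, at 56.4% and 60.9% against a median of 49.4% among all tested genes. For Aars, 15.1% of exon bases also belong to Exosc6, a gene on the same strand, and reads there count for neither gene.

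Hars, for histidine, had 28.8, 25.9 and 24.7 CPM in Pkd1 KO kidneys, against 44.03, 49.3 and 39.5 CPM in controls (−0.74 ± 0.14, edgeR adjusted p = 0.00442). Nars, for asparagine, had 65.2, 71.4 and 62.6 CPM in Pkd1 KO kidneys, against 105, 112 and 87.8 CPM in controls (−0.61 ± 0.14, edgeR adjusted p = 0.00905). Tars, for threonine, had 28.9, 25.7 and 25.96 CPM in Pkd1 KO kidneys, against 46.4, 44.8 and 36.1 CPM in controls (−0.66 ± 0.15, edgeR adjusted p = 0.00736). None of these 3 overlapped between groups, and all fell with the offsets too. Gars, for glycine, had 60.97, 48.7 and 57.6 CPM in Pkd1 KO kidneys, against 82.9, 74.3 and 79.1 CPM in controls (−0.50 ± 0.14, edgeR adjusted p = 0.0176). Yars, for tyrosine, had 30.2, 26.2 and 27.9 CPM in Pkd1 KO kidneys, against 47.97, 40.0 and 37.7 CPM in controls (−0.58 ± 0.15, edgeR adjusted p = 0.0122), and −0.03 with the offsets (adjusted p = 0.876). Both were lower in every Pkd1 KO kidney than in any control.

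The phenylalanine enzyme is built from the products of Farsa and Farsb. Farsa had 22.4, 19.4 and 19.7 CPM in Pkd1 KO kidneys, against 34.2, 28.2 and 29.2 CPM in controls (−0.58 ± 0.14, edgeR adjusted p = 0.0113). Farsb had 51.9, 43.4 and 38.95 CPM in Pkd1 KO kidneys, against 61.2, 47.1 and 61.3 CPM in controls, with overlapping groups (−0.34 ± 0.17, edgeR adjusted p = 0.122). The offsets gave Farsb −0.76 (adjusted p = 0.00467), and it was also called without control 2 (−0.49, edgeR adjusted p = 0.0154). The difference between the changes of the 2 subunits was not tested.

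Cars and Sars completed the cytosolic list. Cars, for cysteine, had 15.5 to 16.7 CPM in Pkd1 KO kidneys and 18.1 to 21.3 CPM in controls, apart but not called (−0.28 ± 0.14, edgeR adjusted p = 0.119; 0.38 with the offsets, adjusted p = 0.127). Sars, for serine, had 131, 113 and 114 CPM in Pkd1 KO kidneys, against 125, 114 and 128 CPM in controls (−0.04 ± 0.13, edgeR adjusted p = 0.828). Its groups overlapped, and the offsets gave 0.41 (adjusted p = 0.0492), with the sign of the change turned.

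Leaving out single kidneys ended several calls close to the threshold. Farsa, Gars, Kars and Yars were not called without KO 2 (edgeR adjusted p 0.0608, 0.0954, 0.0564 and 0.0658) or without KO 3 (0.058, 0.0638, 0.0546 and 0.0551). Gars and Yars were also lost without control 1 (edgeR adjusted p 0.0612 and 0.0519), Qars without KO 2 (0.0612) and Nars without KO 3 (0.0514). The cytosolic genes called lower thereby numbered 9 without KO 2 and 9 without KO 3. Aars, Eprs, Hars, Iars, Rars, Tars, Vars and Wars were called lower with any 1 library left out, in the fit without offsets.

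**Figure D3:**
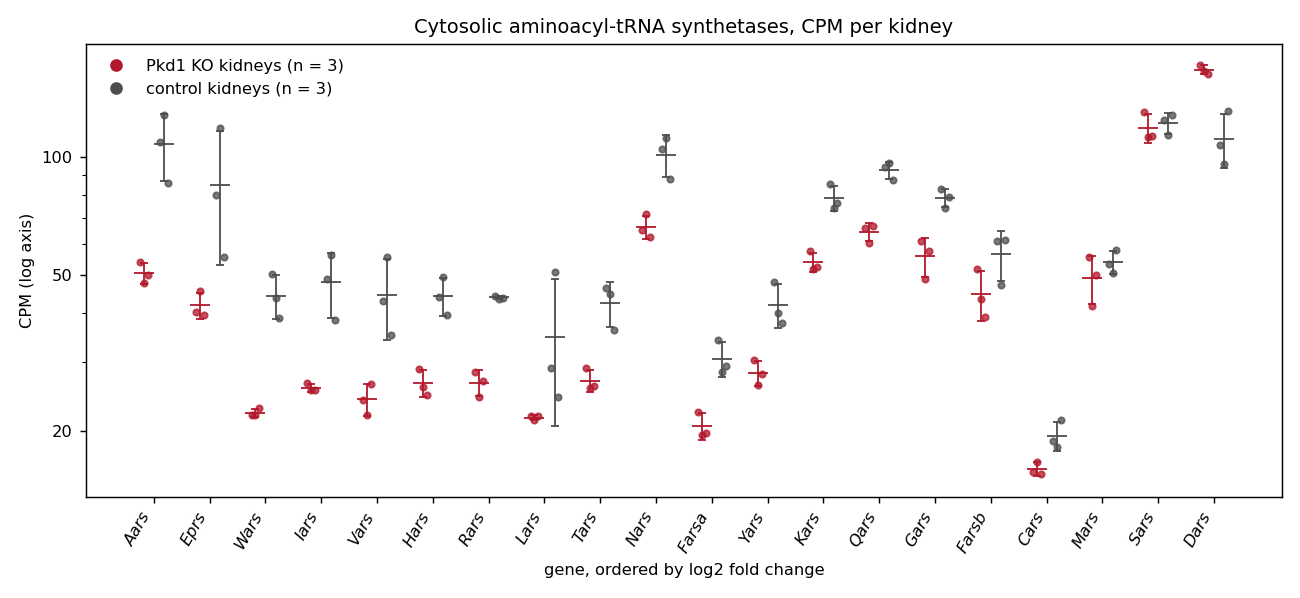
CPM of each cytosolic synthetase in every kidney on a log axis, Pkd1 KO in red left of control in grey, with horizontal marks for means and bars for SD (n = 3 each), ordered by log2 fold change. Only Farsb, Mars and Sars overlap between groups, and Dars at the right end is the 1 gene with Pkd1 KO kidneys above controls.

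Promoters of the synthetase genes were searched for TGATGNAA, the core of the C/EBP-ATF response element that ATF4 binds. The RefSeq promoter table (GRCm38.p6, 250 bases before to 50 after each start) held 27 of the 36 genes, and both strands were searched. The motif occurred in 5 of 13 cytosolic and 0 of 14 mitochondrial promoters found there, and in 3.97% of all 32851 windows. All 5 genes, Aars, Gars, Iars, Tars and Yars, were called lower without offsets, and Gars, Iars and Tars also with them. Of the 13 cytosolic genes, 9 were called lower without offsets and 5 of these hold the motif, against 0 of the other 4. That contrast did not hold with the offsets, where Aars and Yars hold the motif and were not called. Eprs, Farsa, Farsb and Kars lack it and were called lower there. The genes with no entry are Cars, Hars, Lars, Nars, Rars, Vars, Wars, Hars2 and Pars2. A match describes letters in the window, not binding. Upstream and downstream refer to the RefSeq start. For Gars, Dars, Kars, Sars and Sars2, no GENCODE transcript of the gene held the stretch checked just after that start. The copies of Gars, Iars, Tars and Yars are printed with the motif in capitals and 10 bases on each side, 5′ to 3′ on the strand of the gene. Copies that begin with TT carry the motif on the other strand.
Gars, chr6:55037961-55037988, plus strand, upstream: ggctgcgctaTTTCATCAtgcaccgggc
Iars, chr13:49682127-49682154, plus strand, downstream: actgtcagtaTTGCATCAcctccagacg
Tars, chr15:11399656-11399683, minus strand, upstream: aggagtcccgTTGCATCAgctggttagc
Yars, chr4:129189896-129189923, plus strand, downstream: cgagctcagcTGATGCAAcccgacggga

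Longer context is given for Tars, which fell in both fits, as the 250 bases before its start with the motif in capitals.
Tars, chr15:11399659-11399908, minus strand: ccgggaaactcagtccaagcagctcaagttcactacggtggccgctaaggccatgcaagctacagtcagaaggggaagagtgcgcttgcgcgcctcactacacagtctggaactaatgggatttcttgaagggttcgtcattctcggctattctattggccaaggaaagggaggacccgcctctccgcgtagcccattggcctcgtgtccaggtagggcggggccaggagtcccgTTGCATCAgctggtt

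Mitochondrial synthetase genes were called at about the share of all genes. Of 16, 6 fell (Aars2, Ears2, Iars2, Sars2, Tars2 and Vars2), 2 rose (Hars2 and Nars2) and 8 were not called, with a median log2 fold change of −0.06 and a range of −1.60 to 0.62. The 8 of 16 called compare with 46.9% of all tested genes. By direction, 37.5% were called lower and 12.5% higher, against 24.2% and 22.7% of all tested genes. With the offsets 4 fell (Aars2, Ears2, Iars2 and Rars2) and 4 rose (Fars2, Hars2, Lars2 and Nars2), with a median of −0.15. That fit called 17.4% of all genes lower and 17.1% higher. In both fits 3 fell and 2 rose. The Pkd1 KO values lay below all controls for 6 genes, above them for 4 and overlapped for 6, and 61.2% of all tested genes had groups apart.

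Aars2, the mitochondrial alanine enzyme, showed the largest change of the 36 without offsets. Aars2 (ENSMUSG00000023938) had 7.64, 6.51 and 6.42 CPM in Pkd1 KO kidneys, against 20.2, 27.4 and 14.5 CPM in controls. The log2 fold change was −1.60 ± 0.23 (SE, edgeR adjusted p = 0.00259), and −0.60 with the offsets (adjusted p = 0.0109). Vars2, for valine, had 9.54, 9.02 and 8.997 CPM in Pkd1 KO kidneys, against 23.3, 26.8 and 16.96 CPM in controls (−1.29 ± 0.19, edgeR adjusted p = 0.00259), and −0.31 with the offsets (adjusted p = 0.0632). In both genes the lowest control was well above the highest Pkd1 KO kidney. Both are GC-rich, Vars2 at 58.6%.

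Iars2, for isoleucine, had 84.5, 59.6 and 68.9 CPM in Pkd1 KO kidneys, against 140.1, 141 and 123 CPM in controls (−0.92 ± 0.16, edgeR adjusted p = 0.00344; −0.55 with the offsets, adjusted p = 0.0205). Of its exon bases 24.2% overlap Rab3gap2 on the opposite strand, and reads there count for neither gene. Ears2, the glutamate enzyme that also charges the glutamine tRNA of mitochondria in the first step of an indirect route, had 10.3, 7.18 and 8.74 CPM in Pkd1 KO kidneys, against 15.3, 13.9 and 16.3 CPM in controls (−0.80 ± 0.17, edgeR adjusted p = 0.00679). The groups were apart, and the decrease remained with the offsets at −0.54 (adjusted p = 0.0311). Its partners in that route, Gatb, Gatc and Qrsl1 of the amidotransferase, were not called without offsets (edgeR adjusted p 0.432, 0.357 and 0.0735), while Gatc and Qrsl1 were lower with them (−0.62 and −0.41, adjusted p 0.00997 and 0.0279).

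Sars2, for serine, is a gene whose human mutations cause a syndrome that includes kidney failure. It had 7.399, 6.199 and 6.36 CPM in Pkd1 KO kidneys, against 13.7, 14.2 and 8.59 CPM in controls (−0.87 ± 0.21, edgeR adjusted p = 0.0108). Control 3 stood closest to the Pkd1 KO kidneys. The call ended without KO 2 (edgeR adjusted p = 0.0518) and with the offsets (−0.15, adjusted p = 0.481). Tars2, for threonine, had 25.3, 21.8 and 22.7 CPM in Pkd1 KO kidneys, against 38.2, 32.9 and 38.6 CPM in controls (−0.65 ± 0.14, edgeR adjusted p = 0.00621), and −0.16 with the offsets (adjusted p = 0.47).

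Both mitochondrial genes that rose did so in both fits. Nars2, for asparagine, had 28.7, 27.7 and 29.04 CPM in Pkd1 KO kidneys, against 20.3, 15.4 and 19.9 CPM in controls (0.62 ± 0.15, edgeR adjusted p = 0.0103; 0.63 with the offsets). Its call held with any 1 library left out. Hars2, for histidine, had 68.5, 64.3 and 67.5 CPM in Pkd1 KO kidneys, against 42.9, 36.5 and 55.04 CPM in controls (0.58 ± 0.17, edgeR adjusted p = 0.0208; 0.51 with the offsets). All Pkd1 KO kidneys were above all controls, but the call was lost without KO 1, KO 2, KO 3 or control 1 (edgeR adjusted p 0.073, 0.0636, 0.0715 and 0.086).

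Lars2 took 32.7% to 39.4% of all counts of the 16 mitochondrial genes in a library. It had 322, 287 and 228 CPM in Pkd1 KO kidneys, against 275, 308 and 284 CPM in controls, with overlapping groups (−0.05 ± 0.16, edgeR adjusted p = 0.818). The offsets gave 0.75 (adjusted p = 0.0175) for this gene of 11089 exon bases. Fars2, for phenylalanine, had 81.4, 72.2 and 73.6 CPM in Pkd1 KO kidneys, against 67.8, 52.7 and 79.2 CPM in controls (0.19 ± 0.17, edgeR adjusted p = 0.384), and 0.64 with the offsets (adjusted p = 0.0341). Rars2, for arginine, had 67.9, 59.2 and 58.1 CPM in Pkd1 KO kidneys, against 52.7, 47.5 and 60.9 CPM in controls (0.20 ± 0.15, edgeR adjusted p = 0.274), and −0.34 with the offsets (adjusted p = 0.0461). Each of these 3 overlapped between groups, and each was called in the offset fit alone.

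The other 5 mitochondrial genes were called in neither fit. Wars2, for tryptophan, had 16.8, 18.1 and 15.2 CPM in Pkd1 KO kidneys and 14.1, 13.04 and 14.7 CPM in controls (0.26 ± 0.14, edgeR adjusted p = 0.161), and Pars2, for proline, 7.72 to 8.23 CPM and 5.75 to 7.43 CPM in the same order of groups (0.25 ± 0.16, edgeR adjusted p = 0.231). These groups were apart, with Pkd1 KO kidneys higher. Mars2, the methionine enzyme, differed least, with 20.7, 18.2 and 21.1 CPM in Pkd1 KO kidneys against 18.8, 20.1 and 20.5 CPM in controls (0.01 ± 0.14, edgeR adjusted p = 0.95). Cars2 and Yars2, for cysteine and tyrosine, stood at −0.14 ± 0.18 and −0.08 ± 0.21 (edgeR adjusted p 0.55 and 0.784), with controls that ran from 30.5 to 46.4 CPM and from 29.6 to 52.6 CPM.

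**Figure D4:**
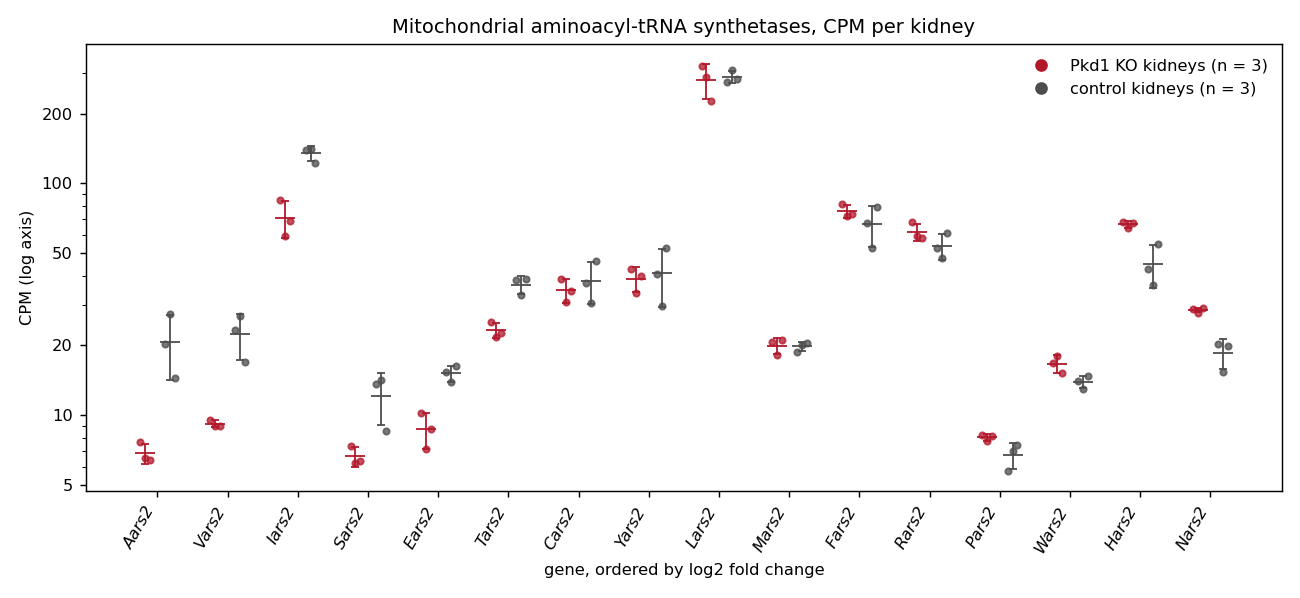
CPM of each mitochondrial synthetase in every kidney on a log axis, Pkd1 KO in red left of control in grey, with horizontal marks for means and bars for SD (n = 3 each), ordered by log2 fold change. Aars2 and Vars2 at the left end have Pkd1 KO kidneys below 10 CPM and controls above 14 CPM, and Hars2 and Nars2 at the right end have Pkd1 KO kidneys above all controls.

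Set side by side, the median log2 fold change of cytosolic genes lay 0.53 below that of mitochondrial genes, and 0.38 below it with the offsets. This difference of medians is a description, since members were listed with earlier results known. Mitochondrial counts summed to 840, 729 and 697 CPM in Pkd1 KO kidneys and 826, 817 and 858 CPM in controls, which overlapped, unlike the cytosolic sums. Without Lars2 the mitochondrial sums were 518, 442 and 469 CPM in Pkd1 KO kidneys, against 551, 509 and 575 CPM in controls. The ratio of the cytosolic to the whole mitochondrial sum was 1.19, 1.26 and 1.34 in Pkd1 KO kidneys, against 1.59, 1.64 and 1.39 in controls. The groups were apart by a narrow margin, between KO 3 and control 3.

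Median exon length was 4840 bases for cytosolic and 5604 for mitochondrial genes, and median GC content 49.8% and 49.3%. By structure, class I and class II enzymes have unrelated catalytic folds. Of cytosolic genes 6 of 9 class I and 7 of 10 class II fell, as did 3 of 9 and 3 of 7 mitochondrial ones. These are 66.7%, 70%, 33.3% and 42.9%, against 24.2% of all tested genes. With the offsets the cytosolic counts were 3 of 9 and 7 of 10, and the mitochondrial ones 3 of 9 and 1 of 7. That fit called 17.4% of all genes lower. In both fits 3 and 6 cytosolic and 2 and 1 mitochondrial genes fell, in the same order of classes. The difference between classes was not tested. Hars2 and Nars2 are class II, and with the offsets the class I gene Lars2 was called higher as well. Kars, which is class II in animals, is counted there, and the bifunctional Eprs in neither. The spread within groups differed too. The coefficient of variation was smaller in Pkd1 KO kidneys than in controls for 25 of the 36 (medians 7.86% and 12.9%), and for 76.5% of all tested genes. Among the 20 synthetase genes called lower, control 3 was the lowest control for 14.

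For 13 amino acids the list holds a cytosolic and a mitochondrial gene of the same stem. The log2 ratio of cytosolic to mitochondrial CPM was lower in Pkd1 KO kidneys for 9 pairs and higher for 4, with a median difference of −0.16 and a range of −1.34 to 0.80. The histidine pair differed most. Hars over Hars2 was 0.42, 0.403 and 0.366 in Pkd1 KO kidneys, against 1.03, 1.35 and 0.718 in controls, in CPM. Per kilobase of exon the ratio was 0.734, 0.705 and 0.64 in Pkd1 KO kidneys, against 1.80, 2.36 and 1.26 in controls, so that the level of Hars2 exceeded that of Hars in every Pkd1 KO kidney and in no control. These neighbours lie on opposite strands and share 7.97% of the exon bases of Hars, and reads there count for neither gene. Opposite-strand overlaps also cover 10.7% of the exon bases of Fars2, 9.47% of Farsb and 8.52% of Vars2.

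Nars over Nars2 was 2.27, 2.57 and 2.16 in Pkd1 KO kidneys, against 5.17, 7.24 and 4.402 in controls. Wars over Wars2 was 1.303, 1.21 and 1.496 in Pkd1 KO kidneys, against 3.55, 3.35 and 2.64 in controls. Rars over Rars2 was 0.417, 0.412 and 0.462 in Pkd1 KO kidneys, against 0.841, 0.915 and 0.719 in controls. In these 3 pairs, as in the histidine pair, the groups did not overlap and the ratio was lower with the offsets too. The opposite held for serine, where Sars over Sars2 was 17.7, 18.2 and 17.9 in Pkd1 KO kidneys, against 9.099, 8.02 and 14.9 in controls. Aars over Aars2 was 7.07, 7.32 and 7.77 in Pkd1 KO kidneys, against 5.41, 4.68 and 5.95 in controls, and Vars over Vars2 was 2.51, 2.43 and 2.93 against 1.83, 2.07 and 2.07. In these last 2 pairs, as in the isoleucine and threonine pairs, both genes fell in the fit without offsets. With the offsets the ratio was lower in 7 of the 13 pairs.

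**Figure D5:**
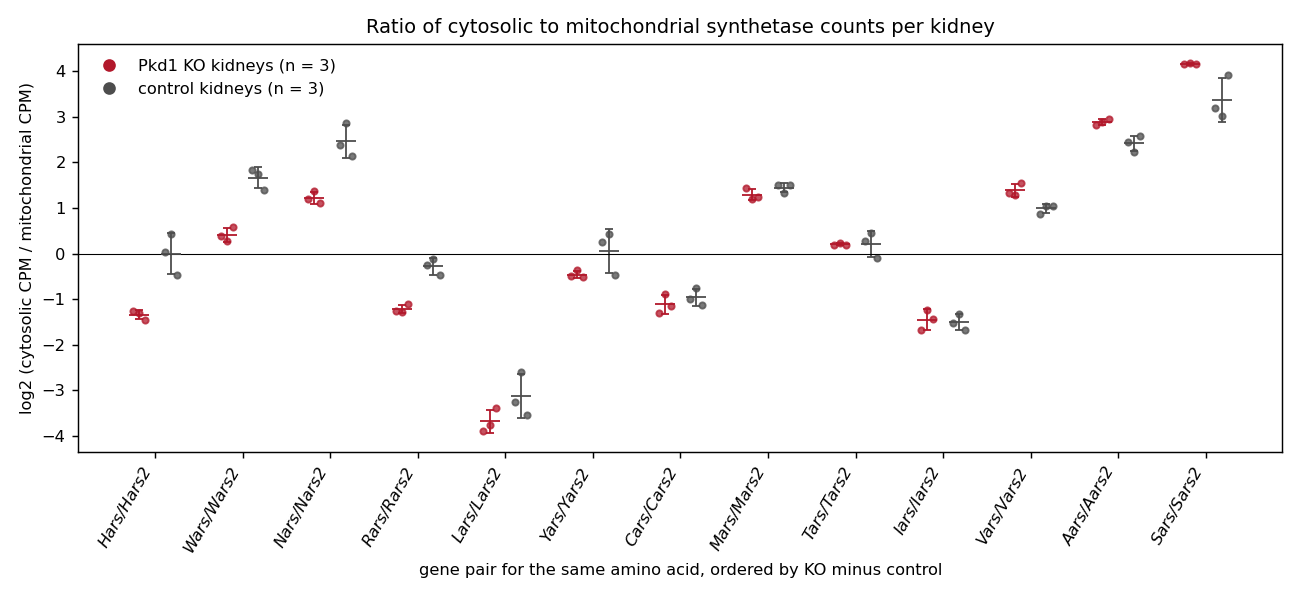
Log2 ratio of cytosolic to mitochondrial CPM for 13 gene pairs in every kidney, Pkd1 KO in red left of control in grey, with horizontal marks for means and bars for SD (n = 3 each), ordered by the difference between groups. The histidine, tryptophan, asparagine and arginine pairs at the left are lower in all Pkd1 KO kidneys, and the valine, alanine and serine pairs at the right are higher.

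Genes around the synthetases did not follow the cytosolic decrease as a block. The counts of called genes below stand beside 24.2% lower and 22.7% higher among all tested genes without offsets. The shares with the offsets were 17.4% and 17.1%. Of the 3 scaffold genes of the multisynthetase complex, 2 rose in the fit without offsets. Eef1e1 had 46.3, 51.3 and 45.4 CPM in Pkd1 KO kidneys, against 22.9, 14.1 and 34.04 CPM in controls (1.01 ± 0.27, edgeR adjusted p = 0.016; 0.57 with the offsets, adjusted p = 0.0553). Aimp1 stood at 0.46 ± 0.16 (edgeR adjusted p = 0.039; −0.21 with the offsets, adjusted p = 0.152), and Aimp2 was not called (0.29 ± 0.19, edgeR adjusted p = 0.246). The call of Eef1e1 was lost without KO 2 or control 1, and that of Aimp1 without KO 1, KO 2, KO 3, control 1 or control 2. Of 8 synthetase relatives and proofreading enzymes 2 rose, Prorsd1 (1.11 ± 0.23, edgeR adjusted p = 0.00543) and Ptrh2 (0.93 ± 0.26, edgeR adjusted p = 0.0174), and 1 fell, Tarsl2 (−0.69 ± 0.24, edgeR adjusted p = 0.0413). With the offsets these stood at 0.21, 0.37 and −0.52 (adjusted p 0.25, 0.144 and 0.0722), and upper-quartile scaling called 4 of the list higher and no longer Tarsl2. Ptrh2 was lost without KO 1, KO 2 or control 1, and Tarsl2 without any of KO 1, KO 2, KO 3, control 1 and control 2.

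Mitochondrial translation factors split. Of 9, 4 fell and 3 rose in each fit, but not all were the same genes, and 3 fell and 2 rose in both fits. The 4 and 3 of 9 are 44.4% and 33.3%, against 24.2% and 22.7% of all tested genes without offsets. Tufm, the elongation factor that brings charged tRNA to the mitochondrial ribosome, had 50.7, 44.6 and 42.6 CPM in Pkd1 KO kidneys, against 119, 99.5 and 87.3 CPM in controls (−1.15 ± 0.16, edgeR adjusted p = 0.00238; −1.09 with the offsets). Gfm1, the translocation factor, fell by 0.97 (± 0.14, edgeR adjusted p = 0.00259; −1.12 with the offsets). Both were lower in every Pkd1 KO kidney. Mtrf1, a release factor, rose (0.98 ± 0.20, edgeR adjusted p = 0.0054; 0.51 with the offsets). The increases numbered 1 without KO 1, KO 2, KO 3 or control 1, and the decreases 2 without KO 3.

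Of 12 genes that process and modify mitochondrial tRNA, 3 rose and 3 fell. That is 25% each way, near the 22.7% and 24.2% of all tested genes called higher and lower. The counts were 2 and 3 with the offsets, and 1 rose and 3 fell in both fits. They were 6 and 2 with upper-quartile scaling, and 5 rose without control 3. Hsd17b10, a subunit of the enzyme that trims the 5′ end, had 248, 266 and 266 CPM in Pkd1 KO kidneys, against 121, 85.6 and 172 CPM in controls (1.04 ± 0.23, edgeR adjusted p = 0.00763; 0.58 with the offsets). Elac2, which trims the 3′ end, had 14.03, 11.2 and 12.8 CPM in Pkd1 KO kidneys, against 27.2, 31.5 and 18.5 CPM in controls (−1.03 ± 0.21, edgeR adjusted p = 0.00526). Trnt1, which adds the CCA tail that synthetases charge, rose by 0.78 ± 0.15 without offsets (edgeR adjusted p = 0.0049; 0.20 with them, adjusted p = 0.177). The proteins encoded in mitochondrial DNA had 3 genes higher and 2 lower of 11 tested, against 1 higher and 7 lower with the offsets. Those called higher without offsets, mt-Co2, mt-Co3 and mt-Atp6, had at most 7.12 CPM in any kidney. Those called lower without them, mt-Nd5 and mt-Nd6, subunits of respiratory complex I, had at least 713 CPM. The offsets ended the calls of mt-Co2 and mt-Atp6 (0.68 and −0.29, adjusted p 0.149 and 0.414). They moved mt-Co3 from 2.05 to 1.03, mt-Nd5 from −1.11 to −2.20 and mt-Nd6 from −0.94 to −2.12, all still called. In the cytosol, of 5 elongation factor genes Eef1b2 rose (1.13 ± 0.26, edgeR adjusted p = 0.00838; 0.71 with the offsets) and Eef2 fell (−0.80 ± 0.18, edgeR adjusted p = 0.00829; −0.31 with the offsets, adjusted p = 0.13), and a further factor was called higher without control 3 and with upper-quartile scaling.

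Kinases and phosphatases that act on eIF2α were lower or not called, while their substrate was higher. Of 8 genes, 4 fell and 1 rose, with a median of −0.52, and 2 fell and 1 rose with the offsets. In both fits only 1 fell, Eif2ak1, and 1 rose, Eif2s1. The 50% that fell and 12.5% that rose without offsets compare with 24.2% and 22.7% of all tested genes. Eif2ak1, the haem-regulated kinase, had 37.5, 29.6 and 32.2 CPM in Pkd1 KO kidneys, against 75.01, 77.3 and 55.3 CPM in controls (−1.06 ± 0.17, edgeR adjusted p = 0.0028; −0.83 with the offsets). Gcn1, the ribosome-bound activator of GCN2, had 21.99, 20.1 and 26.9 CPM in Pkd1 KO kidneys, against 66.2, 153 and 42.9 CPM in controls (−1.92 ± 0.41, edgeR adjusted p = 0.00606). Without control 2 it stood at −1.28, and with the offsets at −0.14 (adjusted p = 0.454). Eif2ak4, which encodes GCN2 and is named after its values were seen, had 8.85, 10.0 and 9.93 CPM in Pkd1 KO kidneys, against 13.3, 17.2 and 12.03 CPM in controls (−0.56 ± 0.17, edgeR adjusted p = 0.0265; −0.08 with the offsets, adjusted p = 0.644). That call was lost without KO 1, KO 2, KO 3 or control 1 (edgeR adjusted p 0.0973, 0.0742, 0.0737 and 0.0541). Eif2s1, which encodes eIF2α, had 130.5, 139 and 135 CPM in Pkd1 KO kidneys, against 61.9, 39.6 and 78.5 CPM in controls (1.17 ± 0.23, edgeR adjusted p = 0.00459; 0.69 with the offsets, adjusted p = 0.0147).

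Of 23 tested genes of the ATF4 and related stress responses, 8 rose and 5 fell, with a median of 0.28, and 9 rose and 1 fell with the offsets. The 34.8% that rose and 21.7% that fell without offsets compare with 22.7% and 24.2% of all tested genes. The transcription factor gene Atf3 had 5.34, 8.79 and 6.52 CPM in Pkd1 KO kidneys, against 2.23, 0.986 and 2.11 CPM in controls (1.96 ± 0.33, edgeR adjusted p = 0.00308; 1.80 with the offsets). Mthfd2, a mitochondrial folate enzyme, had 5.96, 7.97 and 7.45 CPM in Pkd1 KO kidneys, against 3.09, 2.85 and 4.78 CPM in controls (1.00 ± 0.24, edgeR adjusted p = 0.00952; 0.96 with the offsets). Slc3a2, the heavy chain of amino acid exchangers, had 113, 87.7 and 100.4 CPM in Pkd1 KO kidneys, against 234, 230.4 and 180.3 CPM in controls (−1.10 ± 0.16, edgeR adjusted p = 0.00263; −0.87 with the offsets). All 3 held their call with any 1 library left out. Stc2, Cebpb and Slc7a5, also among the largest changes, did not. Stc2 rose by 1.28 (edgeR adjusted p = 0.011), and Cebpb and Slc7a5 fell (−1.20 and −1.11, edgeR adjusted p 0.0119 and 0.0258). Stc2 and Cebpb were lost without KO 2, and Slc7a5 without KO 1, KO 2, control 1 or control 2. With the offsets Cebpb and Slc7a5 were not called (−0.63 and −0.59, adjusted p 0.116 and 0.144). The list had 4 increases without KO 2 or KO 3, 5 without control 1, and 2 decreases without KO 2. Atf4 itself, named after its values were seen, had 114, 122 and 115 CPM in Pkd1 KO kidneys, against 92.8, 63.5 and 90.0 CPM in controls (0.51 ± 0.17, edgeR adjusted p = 0.0331; 0.63 with the offsets). Its call was lost without KO 1, KO 2, KO 3 or control 1 (edgeR adjusted p 0.083, 0.117, 0.0895 and 0.0541), and its value was 0.33 without control 2.

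Interferon gamma responses are relevant to Wars through its known regulation in human cells. Of 11 tested genes of that response 7 rose and 1 fell, with a median of 0.58. With the offsets 5 rose, and 3 rose in both fits. The 63.6% that rose and 9.09% that fell without offsets compare with 22.7% and 24.2% of all tested genes. Psmb9, an immunoproteasome subunit, had 13.6, 16.8 and 16.7 CPM in Pkd1 KO kidneys, against 6.82, 5.52 and 7.97 CPM in controls (1.22 ± 0.18, edgeR adjusted p = 0.00266; 1.52 with the offsets). Tap1, a peptide transporter, fell without offsets (−0.54 ± 0.15, edgeR adjusted p = 0.0158; 0.19 with them, adjusted p = 0.33). Only 1 increase was called without KO 2, 2 without KO 3 and 4 without control 2. KO 2 and KO 3 had the highest summed macrophage markers, at 352 and 308 CPM. A link between these counts and the markers was not tested.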

How the data were processed

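Poly-A RNA of whole mouse kidneys was sequenced in 6 samples, grouped by the genotype in their titles. The deposited values are read counts per gene, in 7 tables of 1 run each, not normalized. Per the submitters' processing notes the tools were STAR 2.6.1e, cutadapt 4.0 and FastQC 0.11.8, with the build GRCm39. The tables have the form of STAR gene counts and state no gene annotation. The column that ignores strand was used, since the first strand column held about as many reads as the second. The 4 lines that name no gene held 25.3% to 26.3% of reads in Pkd1 KO libraries and 22.9% to 23.8% in controls and were left out. The 2 runs of control 1 were summed.

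Symbols, union exon lengths and GC content came from GENCODE M21, of an older build, joined by identifier (52073 of 56923 matched). CPM are counts scaled by TMM library size, and RPKM are CPM per kilobase of union exon. The test was edgeR 4.0.16 (R 4.3.3), quasi-likelihood, with filterByExpr and Benjamini-Hochberg adjustment at 0.05 over all tested genes, and SE is the absolute log2 fold change over the square root of F. Offsets were per-library loess surfaces (span 0.3) of centred log2 CPM on GC content and log2 length. They would also remove a true change shared by long or GC-rich genes. Alternatives were RLE and upper-quartile scaling, DESeq2 1.42.0, no filter, a replicate block, each library left out, and the first run of control 1 alone. Same-numbered samples did not deviate together (r = 0.0383, −0.0843 and −0.0291), so the numbers were not taken as pairs.

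In a test on simulated counts of Pkd1 KO against control (17926 genes, 3 against 3), edgeR recovered 4 of 50 genes changed 1.5-fold, 23 of 50 changed 2-fold, 47 of 50 changed 3-fold and 50 of 50 changed 4-fold. Of 138 calls, 14 were of genes left unchanged. Only these few genes were changed in the simulation, whereas 8579 of 18273 genes were called in the data. The simulated counts also held no effect of GC content, gene length or sequencing project. The recovery therefore does not carry over to the real counts.

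The members and gene lists were chosen with earlier results of these data known. Every synthetase is named. Of other lists, up to 3 called genes with the largest change per direction could be named (mean log2 CPM of at least 0). For some lists the text gives fewer. A list of 5 or fewer genes could be named whole, called or not. The grouping into the multisynthetase complex was made after the values were seen. The promoter sequence of 1 further gene is not reported here.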

Additional observations from a re-analysis of the deposited data

How the results depend on the processing

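Of 18273 tested genes 8579 were called, 5401 with the replicate block and the offsets together, and 5071 to 10318 with 1 library left out (lowest without KO 2, highest without control 3). Cytosolic genes called lower numbered 14, 9 to 15 with 1 library left out, and cytosolic genes called higher 1, 0 to 1 with 1 left out and 0 with the block and offsets. With block and offsets neither Dars (0.061, edgeR adjusted p = 0.755) nor Sars (adjusted p = 0.0604) was called. DESeq2 called 1 higher, Dars (adjusted p = 0.00234). Mitochondrial genes called higher numbered 2, 4 with the offsets, 4 with block and offsets, and 1 to 2 with 1 left out. Those called lower numbered 6, 3 with block and offsets, and 5 to 6 with 1 left out. The difference of medians, cytosolic minus mitochondrial, was −0.53, −0.38 with the offsets, −0.39 with block and offsets, and −0.71 to −0.47 with 1 library left out. Upper-quartile scaling shifted the median of all genes from 0.03 to 0.19, ended the call of Gars (−0.34, adjusted p = 0.0754) and made that of Wars2 (0.42, adjusted p = 0.0424). Lars was called by RLE scaling, DESeq2 and without a filter (edgeR adjusted p 0.0469, DESeq2 0.023, edgeR 0.00565). The replicate block alone, with 7397 calls, changed no member's call, and the first run of control 1 alone changed none. Other causes of these shifts were not tested.

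Signs turned with the offsets, and with block and offsets, for Aars (0.023 and 0.026), Cars (0.38 and 0.41), Mars (0.060 and 0.056), Sars (0.41 and 0.42), Vars (0.25 and 0.25), Cars2 (0.15 and 0.19), Lars2 (0.75 and 0.75), Mars2 (−0.17 and −0.18) and Rars2 (−0.34 and −0.34). They turned with upper-quartile scaling for Mars (0.021), Sars (0.12), Cars2 (0.017), Lars2 (0.11) and Yars2 (0.076). Mars2 stood at −0.011 with RLE scaling, −0.011 with DESeq2 and −0.054 to 0.077 with 1 library left out, Lars2 at −0.17 to 0.078 and Yars2 at −0.29 to 0.096.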
